A study of Mus musculus with 15 samples.

Results

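The granule genes of neutrophils and eosinophils were followed through erythroid progenitors of the mouse fetal liver. The set held 10 genes, Mpo, Elane, Prtn3, Ctsg, Prg2, Prg3, Epx, Ear6, Ngp and Lyz2, and each had 1 row among the 55487 mouse gene rows of both count tables. The members were picked by name with results of group 2 of mice already known, and several had been among the most raised genes there. Their differences from wildtype in group 2 are therefore given as a description. Tests of the members are read only in group 1, whose contrast was not used to pick them. Even so, earlier results of both groups were known when the set was drawn up. Calls of members in group 2 are printed as part of that description, and nothing is read from them.

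Granulocytes store ready-made proteins in granules. Immature neutrophils load the first, azurophil, granules with myeloperoxidase and a family of serine proteases, and fill later granules with other antimicrobial proteins. Eosinophils pack their granules with very basic proteins, a peroxidase of their own and ribonucleases. The messages for the azurophil and eosinophil proteins are made mainly while the cells are immature, and the fetal liver makes granulocytes beside its main product, red cells.

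RNA had been sequenced from fetal livers of strain 129S6/SvEvTac embryos at stage E12.5, in 15 libraries, 3 per group. Group 1 of mice comprised wildtype and Rpl5 mutant libraries labelled as polyA RNA, and group 2, labelled as total RNA, comprised wildtype and mutant libraries and a further kind of mutant library called low-yield. Rpl5 encodes ribosomal protein L5, part of the 60S subunit. The labels write the mutant genotype only as M or M-lowyield, and a sheet deposited for group 2 carries the name Rpl5plusSkax23Jus. What low-yield means, how the progenitors were isolated and whether replicates came from separate embryos or pools are not given in the sources used here, so p-values measure only the spread between these libraries, which may be technical. By its title the series is about a lipid metabolism defect of Diamond Blackfan anemia, a hereditary shortage of red cell precursors, and its comparisons ask how mutant progenitors differ from wildtype ones.

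Total counts were 48510828 to 58513669 per library in group 1 and 24954324 to 44827821 in group 2. Values are counts-per-million (CPM) after TMM scaling. PolyA and total RNA differ in makeup, so no level was set against one from the other group of mice. Rpl5 was at 656 to 745 CPM in wildtype and 521 to 570 CPM in mutant libraries of group 1, and at 303 to 374, 232 to 248 and 219 to 278 CPM in wildtype, mutant and low-yield libraries of group 2. The 15 erythroid markers, which define the labelled cells, summed to 5192 to 19070 CPM, and none was below 1 CPM in all libraries. In group 1 the granule genes took between 0.00846% and 0.132% of a library, and in group 2 between 0.00176% and 0.0401%. In bulk RNA, fewer cells of a type and less RNA per cell cannot be told apart.

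Several members lie beside a relative on the GRCm38 genome. Mpo (ENSMUSG00000009350, chromosome 11, 87793581 to 87804413) and Epx (ENSMUSG00000052234, 87864000 to 87875536) encode related peroxidases and are 59.6 kb apart. Prtn3 (ENSMUSG00000057729, chromosome 10, 79874476 to 79883174) and Elane (ENSMUSG00000020125, 79886247 to 79888215) encode related proteases and are 3.1 kb apart. Prg2 (ENSMUSG00000027073, chromosome 2, 84980461 to 84983632) and Prg3 (ENSMUSG00000027072, 84988215 to 84993886) are 4.6 kb apart. Ctsg (ENSMUSG00000040314, 56099881 to 56102574) and Ear6 (ENSMUSG00000062148, 51853699 to 51854643) are both on chromosome 14 but 4245.2 kb apart. Lyz2 (ENSMUSG00000069516) is on chromosome 10 at 117277331 to 117282321, and Ngp (ENSMUSG00000032484) on chromosome 9 at 110419747 to 110423012. Exons of Mpo overlap those of Gm11505, and exons of Prtn3 those of Plppr3, on the opposite strand. Whether strand was used in counting is not given in the sources used here, so such reads cannot be separated with certainty.

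Related members also share sequence. Over their best local alignment, the transcripts of Mpo and Epx were 75.3% identical, those of Elane and Prtn3 74.5%, and those of Prg2 and Prg3 74.1%. Ear6 and Lyz2 have closer relatives: Ear6 was 88.7% to 89.2% identical to Ear1, Ear2 and Ear10, and Lyz2 was 96% identical to Lyz1 over 1262 aligned bases. Reads can be split wrongly between such copies, so values of Ear6 and Lyz2 are uncertain. With the counts of its relatives summed, Ear6 kept the direction of its change in every comparison and was called or not called as before. It was called only in the group 2 contrasts with wildtype, which picked the members, so the kept calls lend its values no support. For Lyz2 such a sum tests nothing, since Lyz1 had 2 counts in all of group 1 and 0 in group 2.

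The promoters of the members were read for shared letters. RefSeq promoters of GRCm38.p6 were matched for 9 of the 10 members. Motifs were sought in the 250 bases before each start, for the members and for all promoters. The motif AGGAAGT, a core bound by PU.1 and other ETS factors, was chosen after the promoters had been read. Counted on both strands, it was in 5 of the 9, those of Mpo, Elane, Prtn3, Ctsg and Lyz2, and in 7.69% of all 32851 promoters. These 5 stretches are shown because they hold it. The Prtn3 stretch lies before its RefSeq start, which is inside the longer gene model given above. They run 5′ to 3′ along the gene, without the bases that lie in annotated exons, and the capitals mark the match (ACTTCCT where it is on the other strand).

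Mpo, chr11:87793534-87793580, plus strand: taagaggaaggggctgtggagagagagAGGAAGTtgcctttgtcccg

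Elane, chr10:79886062-79886246, plus strand: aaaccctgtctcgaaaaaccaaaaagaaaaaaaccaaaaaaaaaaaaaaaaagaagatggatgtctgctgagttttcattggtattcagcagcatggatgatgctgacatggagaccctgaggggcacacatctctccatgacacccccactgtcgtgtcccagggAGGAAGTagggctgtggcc

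Prtn3, chr10:79879417-79879613, plus strand: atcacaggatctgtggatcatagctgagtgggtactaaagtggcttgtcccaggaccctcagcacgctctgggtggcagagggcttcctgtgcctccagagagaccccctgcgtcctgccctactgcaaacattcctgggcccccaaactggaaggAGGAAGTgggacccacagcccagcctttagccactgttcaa

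Ctsg, chr14:56102575-56102824, minus strand: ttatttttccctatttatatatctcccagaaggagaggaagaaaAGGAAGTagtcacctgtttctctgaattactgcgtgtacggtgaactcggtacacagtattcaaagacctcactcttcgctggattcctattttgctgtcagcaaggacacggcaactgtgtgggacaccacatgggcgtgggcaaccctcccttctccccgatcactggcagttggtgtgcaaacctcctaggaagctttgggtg

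Lyz2, chr10:117282322-117282522, minus strand: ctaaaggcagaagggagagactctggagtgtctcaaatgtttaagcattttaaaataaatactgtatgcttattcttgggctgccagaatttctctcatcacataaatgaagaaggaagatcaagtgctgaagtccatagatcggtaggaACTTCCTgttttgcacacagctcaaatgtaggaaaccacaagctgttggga

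The match lay at positions -223 to -217 in Mpo, -84 to -78 in Elane, -94 to -88 in Prtn3, -206 to -200 in Ctsg and -100 to -94 in Lyz2, counted from the RefSeq start. Prg3, Epx, Ear6 and Ngp did not have these letters in the window. TTNNGNAA, the outline of a C/EBP site, was in 4 of 9 (Prg3, Ear6, Ngp and Lyz2) against 36.8% of all promoters. AACGG, a core of MYB sites, was in Elane and Prtn3 against 14.5%, and GATAA, the core of GATA sites, in Prg3 against 22.6%. Each was sought on both strands. A match describes letters and shows no binding.

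Per kilobase of exon, Prg2, the major basic protein of eosinophil granules, was the highest member in all 15 libraries. Its mean was 196 ± 149 CPM per kb (SD, n = 3) in wildtype and 276 ± 150 in mutant libraries of group 1. Mpo, myeloperoxidase of azurophil granules, ranked 2 or 3 of the 10 in every library, with 31.5 ± 20.9 CPM per kb in wildtype of group 1. Ctsg, the protease cathepsin G, was the lowest member or level with the lowest in every library, at 1.08 ± 1.06 CPM per kb. The 7 others had group 1 wildtype means between 7.18 (Elane) and 30.04 CPM per kb (Ngp), and Mpo, Ngp (SD 22.1), Lyz2 (25.3 ± 18.3), Ear6 (23.8 ± 18.4), Epx (19.9 ± 14.1) and Prtn3 (18.9 ± 12.8) differed from their neighbours in that order by less than their SD. Prg3 (10.8 ± 8.20) and Elane (7.18 ± 3.37) likewise differed by less than the larger SD.

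**Figure D1:**
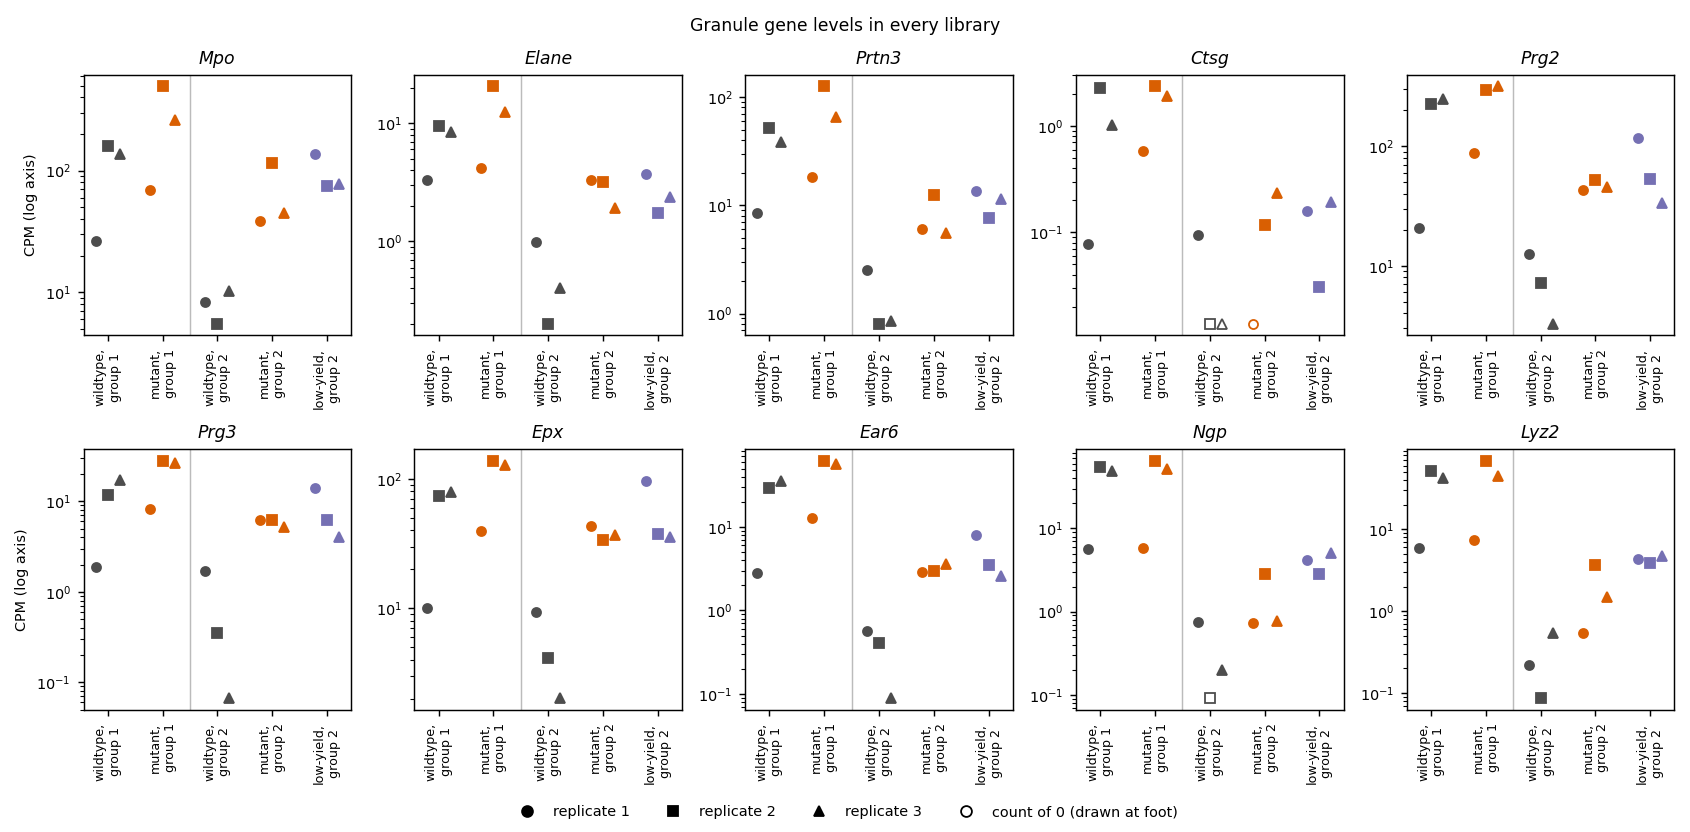
CPM of the 10 granule genes in every library, with a log axis for each panel. Colours mark the genotype and shapes the replicate number, and open symbols at the foot are counts of 0. In group 1 the libraries numbered 1 are the lowest of both genotypes in every panel, and in group 2 the mutant and low-yield libraries are above wildtype in nearly all.

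In group 1, the granule genes were higher in each mutant library than in the wildtype library of the same number, and the libraries numbered 1 were low in both genotypes. Mutant exceeded same-numbered wildtype in all 3 pairs for 10 of 10 members, against 26.2% of the 14048 tested genes. The labels give a replicate number and state no pairing. The members also rose and fell together, so the 10 are not separate observations in this count or in those below. Some ratios were near 1. Ngp had 1.02 in the libraries numbered 1, with 287 mutant and 295 wildtype counts, and Ctsg had 1.04 in those numbered 2. No member had all mutant libraries above all wildtype libraries, against 15% of tested genes. The library numbered 1 was the lowest of its genotype, on both sides, for 10 of 10 members (17.1% of tested genes), and was below 0.5 times the next lowest, on both sides, for all 10 (3.15% of tested genes).

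Among the azurophil genes, Mpo was at 26.2, 159.6 and 138 CPM in wildtype libraries 1, 2 and 3 and at 68.7, 493 and 259 CPM in the mutant ones. The ratio within a number was 2.62, 3.09 and 1.88, although mutant library 1 was below wildtype libraries 2 and 3. With genotype alone in the model, the log2 fold change was 1.34 (SE 1.06, adjusted p 0.511, edgeR quasi-likelihood test). With the replicate number as a block it was 1.31 (SE 0.16, adjusted p 0.0128), a 2.48-fold increase.

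Prtn3, proteinase 3, was at 8.43, 51.7 and 38.3 CPM in wildtype and 18.2, 125 and 65.7 CPM in mutant libraries, with ratios of 2.16, 2.42 and 1.71. It showed the same order of libraries as Mpo, and its groups overlapped. The log2 fold change was 1.09 (SE 1.02, adjusted p 0.586) without the block and 1.05 (SE 0.09, adjusted p 6.84e-08) with it. Elane, neutrophil elastase, was at 3.29, 9.49 and 8.41 CPM in wildtype and 4.15, 20.5 and 12.4 CPM in mutant libraries. Its groups overlapped as well, through mutant library 1. Its log2 fold change was 0.80 (SE 0.75, adjusted p 0.577) and, with the block, 0.69 (SE 0.16, adjusted p 0.00296). Ctsg had only 4, 118 and 59 counts in wildtype and 29, 117 and 97 in mutant libraries. Its change was not called in either fit (adjusted p 0.805 and 0.138).

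The 4 eosinophil genes had their largest mutant-to-wildtype ratio in the libraries numbered 1. Prg2 was at 20.7, 224 and 247 CPM in wildtype and 87.0, 292 and 315 CPM in mutant libraries, so that its ratio was 4.19 in the libraries numbered 1 and 1.303 and 1.28 in the others. Mutant libraries 2 and 3 were above all wildtype libraries, and mutant library 1 was not. The log2 fold change was 0.50 (SE 1.09, adjusted p 0.830), or 0.89 (SE 0.55, adjusted p 0.446) with the block.

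Epx, eosinophil peroxidase, was at 10.02, 74.2 and 79.2 CPM in wildtype and 39.8, 137 and 128 CPM in mutant libraries, with ratios of 3.97, 1.85 and 1.62. Here too only mutant library 1 lay within the wildtype range. Its log2 fold change with the block was 1.15 (SE 0.38, adjusted p 0.231). Prg3, a second basic granule protein, had ratios of 4.43, 2.40 and 1.53, and Ear6, a ribonuclease of the eosinophil-associated family, had 4.51, 2.11 and 1.58. Neither was called in either fit, with adjusted p of 0.113 and 0.229 under the block.

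Ngp and Lyz2 differed least between the genotypes. Ngp, the neutrophilic granule protein of later granules, was at 5.70, 55.3 and 49.2 CPM in wildtype and 5.81, 64.7 and 51.4 CPM in mutant libraries. Its ratios were 1.02, 1.17 and 1.05, and its log2 fold change of 0.15 was not called (SE 1.24, adjusted p 0.960; 0.11, SE 0.08, adjusted p 0.378 with the block). Lyz2, the lysozyme of granulocytes and macrophages, was at 5.97, 51.4 and 42.6 CPM in wildtype and 7.49, 68.1 and 44.9 CPM in mutant libraries. Its log2 fold change of 0.27 was not called without the block (SE 1.16, adjusted p 0.919) and was called with it (0.26, SE 0.09, adjusted p 0.0351).

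**Figure D2:**
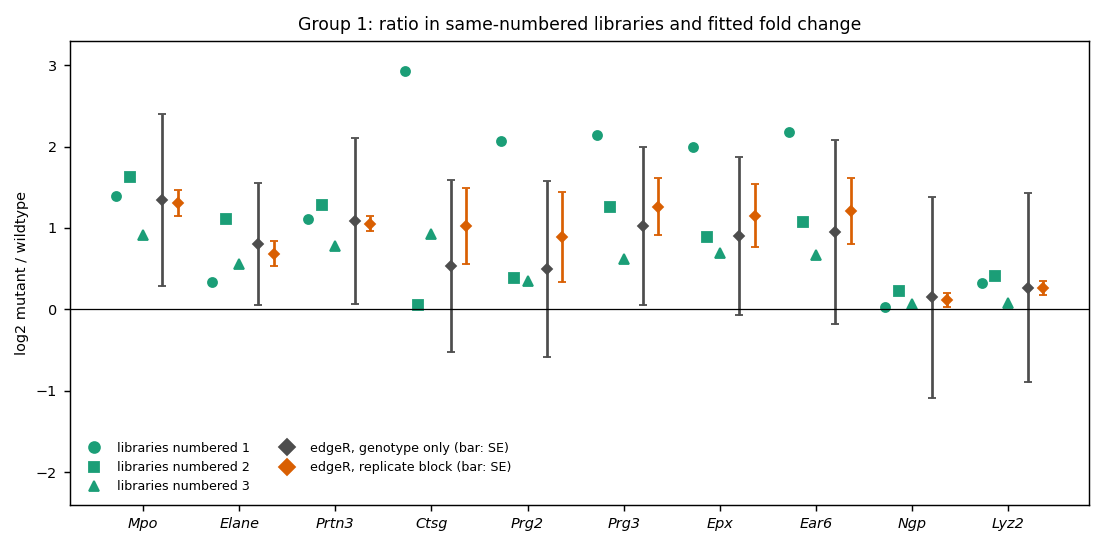
Group 1: log2 ratio of mutant to wildtype CPM in libraries of the same number (green) and the fitted log2 fold change with its SE from edgeR with genotype alone (grey) and with the replicate block (orange). The green points lie above 0 for all 10 genes, those numbered 1 lie highest for Ctsg and the 4 eosinophil genes, and the block shortens the error bars of Mpo, Prtn3, Ngp and Lyz2 most visibly.

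Counted over the set, edgeR with genotype alone called 0 of 10 members higher in group 1, where it called 5.42% of tested genes higher. None had an unadjusted p under 0.05, as 26.6% of tested genes did. DESeq2 and limma voom also called 0 members, and called 2275 and 1925 genes in either direction. With the replicate block 4 of 10 were called (Mpo, Elane, Prtn3 and Lyz2), against 9.96% of tested genes. Without both libraries numbered 1, a setting chosen after their low values were seen, 5 of 10 were called, against 4.6% of tested genes. These were Elane (log2 fold change 0.87, SE 0.22, adjusted p 0.0254), Prg2 (0.37, SE 0.09, adjusted p 0.0154), Prg3 (0.91, SE 0.17, adjusted p 0.00402), Epx (0.79, SE 0.09, adjusted p 3.61e-05) and Ear6 (0.86, SE 0.11, adjusted p 1.46e-04), while Mpo kept its size without a call (1.34, SE 0.46, adjusted p 0.295). Which members were called thus changed with the treatment of the libraries numbered 1, and only Elane was called both with the block and without those libraries. Leaving out wildtype library 1 alone gave Prg2 a log2 fold change of -0.01, and leaving out mutant library 2 alone gave Ngp -0.36 and Lyz2 -0.35. The median log2 fold change of the members was 0.85 without the block and 1.04 with it, beside 0.01 over all tested genes in both fits.

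In group 2, the contrast that picked the members, wildtype libraries held little of any granule message and both kinds of mutant library held more. The summed level of the members was 17.6 to 37.1 CPM in wildtype, 144 to 234 CPM in mutant and 177 to 396 CPM in low-yield libraries. Ctsg, with 0 to 9 counts per library, did not pass the filter on low counts, and the other 9 passed it in libraries where they were high. Wildtype libraries held as few as 7 counts of Elane, 3 of Prg3 and Lyz2, and 0 of Ngp.

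Mpo was at 8.32, 5.52 and 10.1 CPM in wildtype libraries 1, 2 and 3, at 38.4, 116 and 45.0 CPM in mutant libraries and at 136, 74.6 and 76.8 CPM in low-yield libraries. All mutant values lay above all wildtype values, and mutant and low-yield values overlapped. The log2 fold change from wildtype was 3.04 (SE 0.56) for mutant and 3.57 (SE 0.57) for low-yield libraries. Prtn3 was at 2.50, 0.809 and 0.846 CPM in wildtype, 5.98, 12.55 and 5.55 CPM in mutant and 13.6, 7.58 and 11.5 CPM in low-yield libraries. Mutant library 2 stood highest of the mutants for both genes. Elane was at 0.980, 0.202 and 0.401 CPM in wildtype, 3.33, 3.20 and 1.91 CPM in mutant and 3.71, 1.73 and 2.40 CPM in low-yield libraries. It rested on 7 to 31 counts per wildtype library.

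The eosinophil genes were even across the mutant libraries and uneven across the low-yield ones. Prg2 was at 12.6, 7.25 and 3.297 CPM in wildtype, 42.7, 52.4 and 45.9 CPM in mutant and 116, 53.0 and 33.3 CPM in low-yield libraries. Epx was at 9.39, 4.16 and 2.03 CPM in wildtype, 43.1, 34.0 and 36.6 CPM in mutant and 96.5, 37.4 and 35.8 CPM in low-yield libraries. Low-yield library 1 was the highest and wildtype library 3 the lowest of the 9 for both. Prg3 (0.0668 to 1.71 CPM in wildtype, 5.22 to 6.28 in mutant, 4.07 to 14.1 in low-yield) and Ear6 (0.0891 to 0.569, 2.92 to 3.56 and 2.61 to 7.96 CPM) had the same extremes. Wildtype library 3 held 3 counts of Prg3 and 4 of Ear6.

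Ngp and Lyz2 were low throughout group 2 and highest in the low-yield libraries. Ngp was at 0.759, 0 and 0.200 CPM in wildtype, 0.739, 2.86 and 0.775 CPM in mutant and 4.12, 2.86 and 5.01 CPM in low-yield libraries. The 0 is a count of 0, which allows up to 3 counts. Lyz2 was at 0.221, 0.0867 and 0.535 CPM in wildtype, 0.538, 3.71 and 1.47 CPM in mutant and 4.28, 3.93 and 4.77 CPM in low-yield libraries. Mutant and wildtype overlapped for Ngp and were separated for Lyz2 only by the gap between 0.535 and 0.538 CPM.

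Of the 9 members tested, 5 were called higher in the mutant (Mpo, Elane, Prtn3, Ear6 and Lyz2), where 3.23% of the 15024 tested genes were, and 8 had no overlap with wildtype, as 11.5% of tested genes did. In the low-yield mutant 9 were called, where 6.14% of tested genes were, and 9 had no overlap, as 15.3% did. Since this contrast picked the genes, nothing is read from these counts or from the counts of called members below, with libraries left out. The log2 fold changes ran from 2.199 (Ngp, SE 0.92) to 3.20 (Ear6, SE 0.56) for mutant and from 2.32 (Elane, SE 0.51) to 3.88 (Lyz2, SE 0.68) in the low-yield mutant, and both contrasts share the 3 wildtype libraries. Without wildtype library 2 the counts of called members were 1 and 5, and 419 and 995 of all genes were called in either direction, compared with 905 and 1758 with all libraries. Without wildtype library 3 the members were 2 and 5 and the genes 527 and 1137. For low-yield against wildtype, 4 members and 771 genes were called without low-yield library 1, and 5 and 781 without low-yield library 2. For mutant against wildtype, 3 members were called without mutant library 3 (432 genes) and 3 without low-yield library 2 (748 genes).

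**Figure D3:**
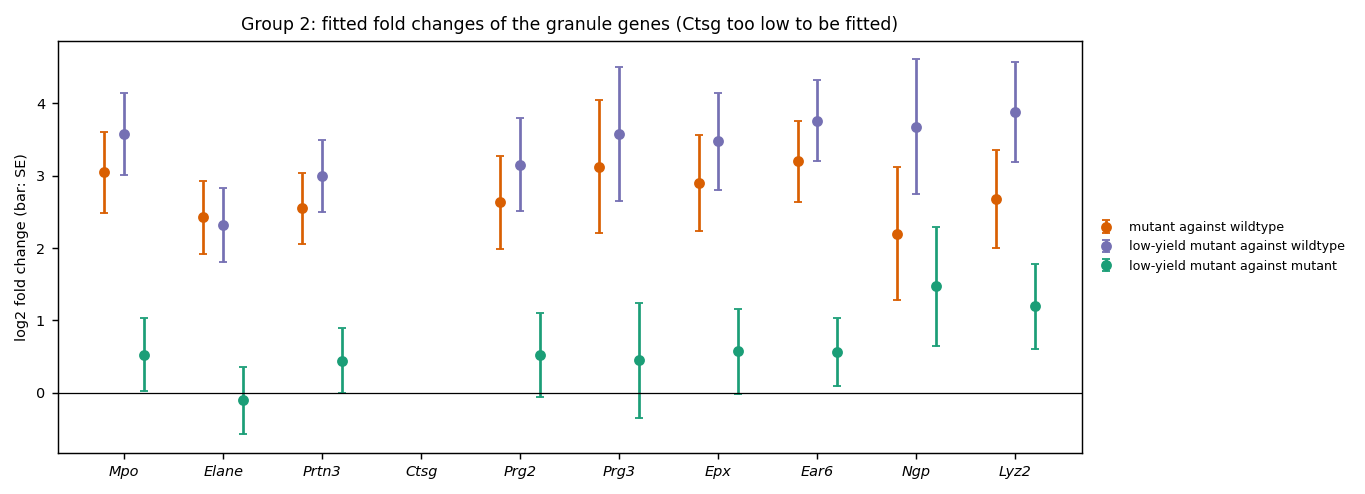
Group 2: fitted log2 fold change with its SE for the 9 granule genes tested, for each kind of mutant library against wildtype and for the kinds of mutant against each other. The contrasts with wildtype lie between 2.199 and 3.88 and picked the genes, and those between the kinds of mutant lie nearer 0, with Ngp and Lyz2 the highest.

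Between the kinds of mutant in group 2, no member was called, and no gene was (0% of tested genes) by edgeR. At an unadjusted p under 0.05 there were 400 of 15024 genes and 0 of 9 members, DESeq2 called 6 genes and limma voom 10, and neither called a member. Without the filter on low counts, edgeR called 87 genes and 3 members, Mpo (log2 fold change 0.54), Prg2 (0.52) and Epx (0.58). That fit left the fold changes nearly as they were and gave Mpo an adjusted p of 1.75e-155 for mutant against wildtype with 3 libraries a group, so its calls are not relied on. The log2 fold change of low-yield against mutant was between -0.10 (Elane, SE 0.46) and 1.47 (Ngp, SE 0.82), with 8 of 9 above 0. Ngp and Lyz2 (1.19, SE 0.59) were above mutant in every low-yield library, as 4.07% of tested genes were, the nearest pair of Ngp values being 2.861 and 2.857 CPM. These libraries were also part of the contrasts that picked the genes, so this too is a description. The SEs leave room for differences of the size shown, and the test does not show that the kinds of mutant were alike. For the 4 eosinophil genes the sign rested on low-yield library 1: without it their log2 fold changes were -0.12 (Prg2), -0.21 (Prg3), -0.05 (Epx) and -0.05 (Ear6).

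After the mean of each group of mice was removed, the log2 CPM of the 9 members that passed the filter in both groups rose and fell together over the 15 libraries. Pearson's r ranged from 0.72 to 0.99 over the 36 pairs of genes, with a median of 0.91, and was highest for Prg2 with Ear6 (0.992) and lowest for Prg3 with Lyz2 (0.724). The 15 points share libraries and include the group 2 difference between mutant and wildtype for which the members were picked. A high r is therefore partly fixed by that choice, and these values describe the set and carry no p. Of 11039 other genes ranked the same way, the 5 most like Mpo were Coro1a (r 0.973), an actin-binding protein of white cells, Ckap4 (0.972), Fli1 (0.966), an ETS factor, Igfbp4 (0.962) and Arsb (0.960), a lysosomal sulfatase. The 5 most like Prg2 were Rab44 (0.977), a large Rab GTPase, Cebpe (0.972), the C/EBP factor of granulocyte maturation, Arsb (0.965), the eosinophil ribonuclease Ear2 (0.950) and B4galt6 (0.950). Coro1a was at 4.21, 26.8 and 19.6 CPM in wildtype and 7.66, 51.3 and 32.9 CPM in mutant libraries of group 1, the order of libraries that Mpo showed.

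Other genes of the granulocyte programme were taken from lists drawn up with earlier results of these data known. In group 2 many of these genes had few or no wildtype counts and passed the filter through the libraries where they were high, so their counts and fold changes in that group are given as a description, with no p. Counts of genes called higher are set beside the share of all tested genes called higher in the same fit. Of the partners of azurophil granules, 1 of 5 tested was called in group 1 (5.42% of all), Ctsc, the protease that activates the granule serine proteases, with a log2 fold change of 0.51 (SE 0.13, adjusted p 0.0394). With the block all 5 were called (9.96% of all), among them Cd63, a granule membrane protein (0.85, SE 0.10, adjusted p 6.84e-06), and Srgn, the proteoglycan that holds granule proteins (0.51, SE 0.12, adjusted p 0.00612). In group 2 none of the 5 was called for mutant (3.23% of all) or low-yield libraries (6.14% of all). All 5 had log2 fold changes above 0 in both, with medians of 0.60 and 1.07. No overlap with wildtype was seen for 1 of 5 in mutant (11.5% of all) and 4 of 5 in low-yield libraries (15.3% of all). Bpi, of the same list, had no count in any library.

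Of the genes of later neutrophil granules and maturation, 0 of 15 tested were called in group 1 (5.42% of all). With the block 2 were, a number near the background of 9.96%: Itgam (0.77, SE 0.23, adjusted p 0.0356) and S100a8 (0.44, adjusted p 0.0178). Their median log2 fold change in group 1 was 0.34. In group 2, 2 of 9 tested were called for mutant (3.23% of all) and 6 for low-yield libraries (6.14% of all), with log2 fold changes there of 2.75 for Hp, haptoglobin (SE 0.48), 3.20 for Camp, cathelicidin (SE 0.65), and 3.46 for S100a9, a subunit of calprotectin (SE 0.75). Wildtype libraries 1, 2 and 3 held 19, 0 and 21 counts of S100a9. Retnlg, of this list, had no count in any library.

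Of the other eosinophil genes, 0 of 5 were called in group 1 (5.42% of all). With the block (9.96% of all) a single gene was, the lectin receptor Siglecf (1.13, SE 0.23, adjusted p 7.93e-04). In group 2, 1 of 4 was called for mutant (3.23% of all) and 3 for low-yield libraries (6.14% of all) (Ear2, Siglecf and Ear1). Of the mast cell and basophil genes, Fcer1a, Mcpt4, Tpsab1 and Tpsb2 were at 0 in all libraries. In group 1, 0 of the 4 tested were called (5.42% of all) and 2 were with the block (9.96% of all), Hdc and Cpa3, a mast cell carboxypeptidase (1.79, SE 0.45, adjusted p 0.00601). In group 2, of 2 tested, 1 was called higher (3.23% of all for mutant, 6.14% for low-yield) and 1 lower (2.8% and 5.56% of all) in both contrasts with wildtype. Hdc, which makes histamine, had log2 fold changes of 1.51 in group 1 (SE 1.05, adjusted p 0.458; 1.69, SE 0.18, adjusted p 2.15e-05 with the block) and, in group 2, of 2.41 for mutant and 3.11 for low-yield libraries. Il1rl1, the interleukin-33 receptor, was lower in both mutants of group 2 (-1.64 and -2.35) and was not called in group 1 (-1.37, SE 0.45, adjusted p 0.0988).

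Of the transcription factors and cytokine receptors of granulocytes, 0 of 13 were called in group 1 (5.42% of all) and 4 with the block (9.96% of all), where Cebpa, which starts granulocyte differentiation, had a log2 fold change of 1.47 (SE 0.50, adjusted p 0.0410). In group 2 a single gene of 13, Cebpe, was called for mutant (3.23% of all) and 4 for low-yield libraries (6.14% of all), with Cebpe at 4.23 (SE 0.77; 13, 4 and 0 counts in the wildtype libraries), Cebpa at 2.19 (SE 0.55) and Csf2rb, the shared chain of the receptors for interleukin-3, interleukin-5 and GM-CSF, at 1.86 (SE 0.39). Of the surface and signalling genes of myeloid cells, 0 of 21 were called in group 1 (5.42% of all) and 14 with the block (9.96% of all), among them Cyba, a membrane subunit of the NADPH oxidase (0.38, SE 0.11, adjusted p 0.0121), and Cst7, a cystatin of immune cells (1.68, SE 0.54, adjusted p 0.0362). In group 2, 5 of 18 were called for mutant (3.23% of all) and 10 for low-yield libraries (6.14% of all), Ncf1 reaching 3.46 (SE 0.48; 8, 17 and 15 counts in the wildtype libraries).

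Markers of other cells moved in part with the granule genes. In group 1 the library numbered 1 was below 0.5 times the next lowest, in both genotypes, for 3.15% of all tested genes. It was so for 2 of 5 azurophil granule partners, 13 of 15 later neutrophil genes, 5 of 5 other eosinophil genes, 2 of 4 mast cell and basophil genes, 8 of 13 regulators and 17 of 21 myeloid surface genes. It was so for 4 of 7 macrophage, 1 of 6 megakaryocyte and 1 of 1 tested lymphoid markers, and for 0 of 15 erythroid and 0 of 12 hepatocyte markers. Of the erythroid markers 12 of 15 were called lower in the group 1 mutant (6.52% of tested genes were), 6 of 15 in the group 2 mutant (2.8%) and 9 of 15 in the low-yield mutant (5.56%). Klf1, the erythroid master regulator, had log2 fold changes of -0.51, -0.48 and -0.61 (adjusted p 9.07e-04, 0.00520 and 5.83e-04). Summed hepatocyte markers were at 35.98 to 67.7 CPM in wildtype and 6.76 to 22.8 CPM in mutant libraries of group 1, with 3 of 12 called lower (6.52% of all) and 4 with the block (1373 of 14048 tested genes). Alb, albumin, was called only without the block (-2.29, SE 0.49, adjusted p 0.0388; adjusted p 0.206 with it). In group 2 they were at 11.4 to 88.0 CPM in wildtype, 9.64 to 53.8 in mutant and 48.2 to 53.7 CPM in low-yield libraries.

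Summed macrophage markers were at 1.74 to 9.29 CPM in wildtype and 2.43 to 18.9 CPM in mutant libraries of group 1, and at 1.297 to 4.90, 2.08 to 8.996 and 4.50 to 7.07 CPM in wildtype, mutant and low-yield libraries of group 2. Cd5l, Spic and Timd4, defining genes of fetal liver macrophages, were at 0 in all libraries. Of the 7 macrophage markers tested, 0 were called higher in group 1 (5.42% of all), in the group 2 mutant (3.23%) or in its low-yield libraries (6.14%), with median log2 fold changes of 0.76, 1.06 and 1.40 and 5, 4 and 7 of the 7 above 0. With the block, 1 of 7 was called in group 1, Vcam1 (1.25, SE 0.42, adjusted p 0.0374), which is near the 9.96% of all tested genes. Summed megakaryocyte markers were at 27.7 to 44.4 CPM in wildtype and 34.4 to 48.0 CPM in mutant libraries of group 1. In group 2 they were at 39.0 to 44.3 CPM in wildtype, 40.0 to 45.4 CPM in mutant and 56.7 to 58.1 CPM in low-yield libraries, the last above all others. Of the 6 markers, 0 were called higher and 1 lower in group 1 (3 and 1 with the block), 1 was called higher in the group 2 mutant and 3 in the low-yield libraries, against the shares of all genes given above. Itga2b, a platelet integrin chain, had log2 fold changes of 0.77 in group 1 (SE 0.24, adjusted p 0.0847; 0.78, SE 0.11, adjusted p 1.53e-05 with the block) and, in group 2, of 0.76 for mutant (SE 0.16, adjusted p 0.0109) and 1.62 for low-yield libraries (SE 0.16, adjusted p 4.01e-05). Vwf, von Willebrand factor, was the marker called lower in group 1 (-0.67, SE 0.19, adjusted p 0.0463). Between the kinds of mutant, 4 of 6 were above mutant in every low-yield library (4.07% of tested genes were) and 0 were called. The 8 lymphoid markers summed to at most 1.20 CPM in any library. The part that these differences in markers play in the granule values was not tested.

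**Figure D4:**
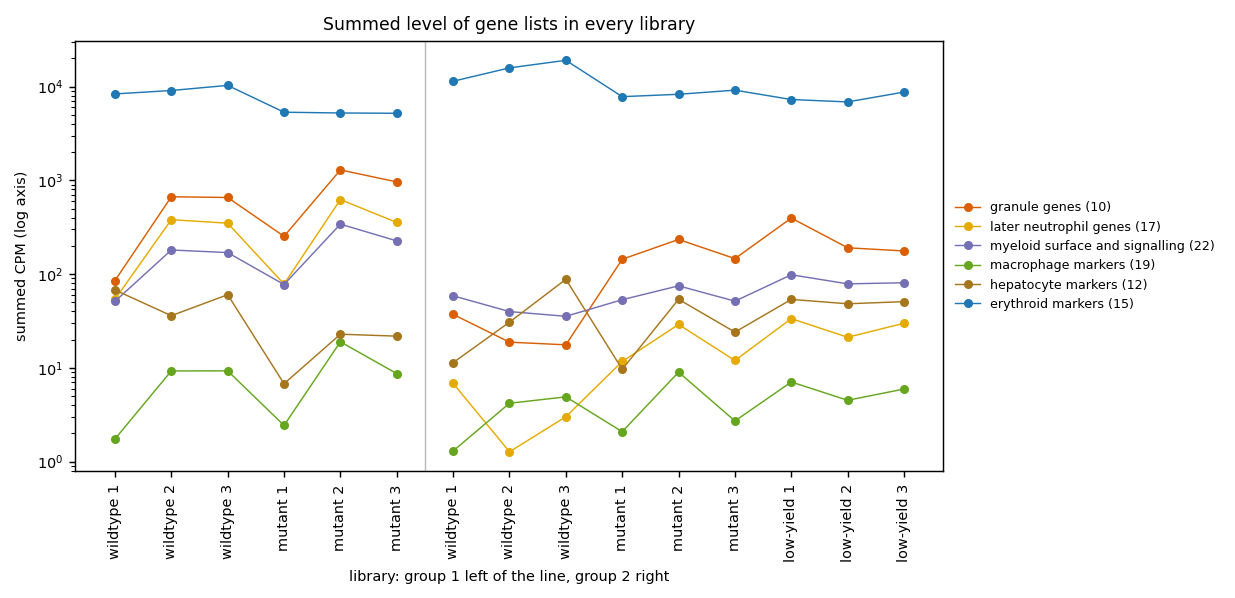
Summed CPM of 6 gene lists in each library, on a log axis, with lines joining the libraries of a group of mice and the number of genes in brackets. The granule, later neutrophil and myeloid sums dip together in both libraries numbered 1 of group 1 (granule genes 85.1 CPM in wildtype and 253 CPM in mutant), while the erythroid sum does not.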

How the data were processed

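The authors deposited expected counts per gene, estimated numbers of reads assigned to each gene and not normalised, in 1 table per group of mice. Per the submitters' processing notes the tools were cutadapt 2.3, FastQC 0.11.8, STAR 2.7.8a, RSEM 1.3.3 and MultiQC 1.7, with build GRCm38. Which annotation release was used, and whether counting used strand, is not given in the sources used here. Per the labels' protocols, RNA was extracted with a column kit and read as 151 bp paired ends. The deposited values were whole numbers, so rounding changed nothing. Reporter rows name no mouse gene, held 5 counts in all and were left out.

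Each group of mice was fitted alone with edgeR 4.0.16 in R 4.3.3 (TMM, filterByExpr, robust quasi-likelihood F test, two-sided, Benjamini-Hochberg over all tested genes, threshold 0.05). The code was tried on data simulated with the same spread for every gene and no effect of replicate number. Such a trial cannot show how the fits behave for these members, which varied widely between replicates. In group 1 the deviations of same-numbered libraries from their group means correlated at 0.15 to 0.44, against -0.35 to 0.23 for other pairs. Only the libraries numbered 1 (0.44) stood above every other pair. Mutant library 2 correlated more with wildtype library 3 (0.23) than with wildtype library 2 (0.19). The labels give a replicate number and state no pairing. The block is therefore an assumption taken partly from these data, and blocked calls hold only under it. The blocked value is printed where it changes a call. In group 2 the same-numbered values were -0.07 to 0.24, and no pairing was assumed. Alternatives were RLE factors, library totals only, DESeq2 1.42.0, limma 3.58.1 voom with quality weights, other filters, the replicate block, each library left out, fits on the 6 compared libraries, and counts summed over Ear genes and over Lyz1 and Lyz2. Genes outside the set are named as the 3 with the smallest p per list in group 1 and the 3 called with the smallest p in the low-yield mutant, at a mean CPM of at least 1; likeness was ranked on log2 CPM (prior count 2). Some genes that the rule names enter the text only through their list's counts, and part of its result is not reported here. Genes outside this rule are named where a count or a level of 0 needs them. The members and lists were chosen with earlier results of these data known. Gene positions come from GENCODE's GRCm38 annotation. The sample sheets hold no measurements.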

Additional observations from a re-analysis of the deposited data

How the results depend on the processing

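In group 1, the replicate block, which assumes a pairing that the labels do not state, moved the called genes from 1678 to 2772. It moved the called members from 0 to 4. Leaving out both libraries numbered 1 moved the members to 5 (1352 genes). Leaving out 1 library gave 757 to 1720 called genes and 0 called members. The lowest counts came without mutant library 3 (757), wildtype library 2 (788) and wildtype library 1 (1073). The log2 fold change then ranged from -0.36 to 0.66 for Ngp, -0.35 to 0.77 for Lyz2, -0.012 to 0.92 for Prg2 and -1.95e-04 to 1.57 for Ctsg. In group 2, for the mutant against wildtype (905 genes, 5 members), DESeq2 called 1389 genes and 8 members, limma voom 1928 genes, and edgeR without a filter on low counts 1457 genes and 9 members. Leaving out 1 library gave 419 to 1314 genes and 1 to 6 members. For low-yield against wildtype (1758 genes, 9 members), voom called 3348 genes, and leaving out 1 library gave 771 to 2234 genes and 4 to 9 members. Between the kinds of mutant (0 and 0), DESeq2 called 6 genes, voom 10, and edgeR without the filter 87 genes and 3 members. Leaving out 1 library gave 0 to 22 genes and 0 members. Elane was at 0.23 under voom, and with 1 library left out it ranged from -0.44 to 0.12, Prg2 from -0.12 to 0.85, Prg3 from -0.21 to 0.78, Epx from -0.049 to 0.82 and Ear6 from -0.054 to 0.86. In group 2 no pairing was assumed, and the fit with the replicate block called 1285 genes and 6 members, 2204 and 8, and 0 and 0 in these 3 comparisons. The members were picked with the group 2 results known, so nothing is read from the counts of called members in that group. Where a cause is not shown by the setting itself, the cause was not tested. Low counts limit Ctsg, and Ngp and Lyz2 in group 2, where counting error alone is wide. They also limit Prg3, Ear6 and Elane in the wildtype libraries of group 2, which held as few as 3, 4 and 7 counts.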
